A study of Mus musculus with 12 samples.

Results

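The interleukin-6 family and its signal path to Stat3 were described in mouse scars by 10 genes, chosen by symbol from the 35976 genes that the 12 count files list. They comprise the cytokines Il6, Il11, Lif and Osm, the receptor chains Osmr, Il6ra and Il6st, the kinase Jak2, the transcription factor Stat3 and the inhibitor Socs3. Each of the 10 was found in the files and was among the 18853 genes that were abundant enough to be tested. RNA-seq was performed on scars of male mice aged 8 to 12 weeks, with 3 mice in each of 4 groups. The groups were the sham and traction groups of Tem1WT/WT mice (WTSH and WTTR) and of Tem1lacZ/lacZ mice (lacZSH and lacZTR). In Tem1lacZ/lacZ mice the lacZ reporter takes the place of the only exon of Tem1 in every cell of the body, so the loss is not limited to fibroblasts, and the line had been crossed to C57BL/6J for 10 generations. All mice received a 1.5-cm wound of the back skin and, 6 days later, a plastic device on the wound. The device was lengthened by 1 mm/day to 8 mm in the traction groups and was left as it was in the sham groups.

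Cytokines of this family bind a receptor chain of their own and then share the signalling chain gp130, which Il6st encodes. Janus kinases on gp130 phosphorylate Stat3, which enters the nucleus and switches on target genes, among them Socs3, whose product binds gp130 and the kinases and stops the signal. In skin, fibroblasts, keratinocytes and leukocytes all carry parts of the path, and its cytokines are known for their roles in wound repair, inflammation and fibrosis.

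Library totals ranged from 41536788 to 64644293 counts with a median of 48173798, and the biological coefficient of variation between mice was 34.2%. Cd248, the symbol of Tem1 in the files, lay between 92.3 and 337 CPM in the 6 Tem1WT/WT libraries and at no more than 0.248 CPM in the 6 Tem1lacZ/lacZ libraries. All 8 fibroblast markers were detected in every library, and their summed level was 26146 to 41448 CPM in WTSH, 44360 to 111018 in WTTR, 17664 to 29983 in lacZSH and 22541 to 49836 in lacZTR. Replicate 1 of WTTR stood apart from the other libraries. The summed level of 10 neutrophil markers was 7054 CPM in it, against 666 and 315 CPM in replicates 2 and 3 of WTTR, 116 to 121 CPM in WTSH, 212 to 218 CPM in lacZSH and 269 to 564 CPM in lacZTR. Between 0 and 2 of these markers had 0 counts in a library, and in WTTR none did. Results that rest on that library are therefore also given without it. Replicate 1 of lacZTR differed in other markers. Its 6 summed keratinocyte markers were at 40463 CPM, against 13576 and 17098 CPM in replicates 2 and 3 of lacZTR and at most 19784 CPM in the other groups. Its summed fibroblast markers were the lowest of lacZTR, at 22541 CPM beside 49836 and 44853 CPM. In whole tissue, more cells of a type and more RNA per cell cannot be told apart.

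Levels are CPM, counts relative to the library size after TMM normalization, and are listed for replicates 1, 2 and 3. Fold changes are log2 values from edgeR's quasi-likelihood test, which was fitted to all 12 libraries. Their standard error (SE) was derived from that test, as the absolute log2 fold change over the square root of its F statistic. Confidence intervals were built from this SE and the t distribution and are approximate. A gene was called where the Benjamini-Hochberg adjusted p over all 18853 genes was under 0.05.

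In the RefSeq annotation of GRCm38.p6 the cytokine genes Osm (chr11:4236785-4241026) and Lif (chr11:4257568-4272514) lie near each other on the plus strand. Il6 (chr5:30013114-30019975) is also on the plus strand and Il11 (chr7:4772373-4782907) is on the minus strand. The receptor genes are Osmr (chr15:6813568-6874968, minus strand), Il6ra (chr3:89869324-89913196, minus strand) and Il6st (chr13:112464070-112506860, plus strand). Jak2 lies at chr19:29251803-29313095 on the plus strand, and Stat3 (chr11:100886806-100939594) and Socs3 (chr11:117966079-117970336) on the minus strand. The sequence before the transcription start was examined for 2 motifs that bear on this path, because Socs3 is a textbook target of Stat3 and because AP-1 factors act on many cytokine genes. RefSeq windows of GRCm38.p6, from 250 bases before to 50 bases after the start, were at hand for 9 of the 10 genes, with 2 windows for Il11, and none for Osm. The STAT palindrome TTCNNNGAA, searched on both strands, was found in the window of Socs3 and in no other of the 10 windows. Of all 32851 promoter windows, 8.3% held it. The AP-1 site TGANTCA was found in Il6, Lif, Osmr and the second window of Il11, and in 7.81% of all windows. These letters do not overlap between the motifs, and the match in Osmr lies after the start. The 250 bases before the start are shown 5′ to 3′ for Socs3, with the STAT palindrome in capitals at −154 to −146 from the start, and for the 3 cytokines with an AP-1 site in capitals, at −249 to −243 in Il6, −98 to −92 in Il11 and −228 to −222 in Lif. The windows of Socs3 (chr11:117969367-117969616, minus strand) and Il11 (chr7:4778142-4778391, minus strand) lie inside the RefSeq span of their gene. Those of Il6 (chr5:30012864-30013113, plus strand) and Lif (chr11:4257318-4257567, plus strand) end at the base before it.
Socs3: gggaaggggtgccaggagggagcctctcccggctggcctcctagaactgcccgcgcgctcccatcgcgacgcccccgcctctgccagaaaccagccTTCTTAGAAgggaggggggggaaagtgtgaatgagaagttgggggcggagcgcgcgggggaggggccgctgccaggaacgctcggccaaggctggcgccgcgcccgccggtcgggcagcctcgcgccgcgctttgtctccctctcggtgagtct
Il6: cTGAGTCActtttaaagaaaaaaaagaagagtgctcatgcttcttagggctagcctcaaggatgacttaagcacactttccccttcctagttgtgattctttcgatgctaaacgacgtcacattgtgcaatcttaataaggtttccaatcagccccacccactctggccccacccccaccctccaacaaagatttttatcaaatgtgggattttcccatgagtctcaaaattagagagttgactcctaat
Il11: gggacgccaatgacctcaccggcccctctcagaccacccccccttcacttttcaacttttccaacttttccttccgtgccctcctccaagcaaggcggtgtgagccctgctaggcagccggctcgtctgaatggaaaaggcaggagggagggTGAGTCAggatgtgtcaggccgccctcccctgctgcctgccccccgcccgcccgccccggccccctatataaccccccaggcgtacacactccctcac
Lif: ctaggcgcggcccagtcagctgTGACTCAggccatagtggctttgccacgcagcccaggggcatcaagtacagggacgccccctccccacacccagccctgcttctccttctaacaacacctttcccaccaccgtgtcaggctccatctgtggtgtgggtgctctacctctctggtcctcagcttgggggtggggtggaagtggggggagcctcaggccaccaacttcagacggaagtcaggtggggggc

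The first comparison asked how traction changed these genes in Tem1WT/WT scars. Il6, Il11, Lif, Osm, Stat3 and Socs3 rose, by log2 fold changes from 1.21 to 5.998, and no member fell. These 6 calls are of 10 members, where 5.61% of all genes tested were called higher. Osmr and Jak2 were higher in every WTTR library than in any WTSH library without passing the test, and Il6ra and Il6st overlapped between the groups. In total 8 members were higher without overlap, against 17.7% of all genes. The median log2 fold change of the 10 members was 1.31, and that of all genes tested was −0.01. DESeq2's Wald test called 8 members (21.5% of all genes in either direction) and limma-voom with sample weights called 3 (3.97%).

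The cytokines were the least abundant members in the sham group and had the largest fold changes beside Socs3. Il6, the founding cytokine of the family, was at 0.152, 0.319 and 1.11 CPM in WTSH and at 13.8, 8.98 and 1.58 CPM in WTTR. The groups did not overlap, but the lowest WTTR library was only 1.42 times the highest WTSH library. Its log2 fold change was 3.92 (SE 0.86, adjusted p = 0.0329 in edgeR's quasi-likelihood test), which is 15.2-fold. Il11, which is known for its action on fibroblasts, was at 0.564, 0.218 and 0.360 CPM in WTSH and at 3.31, 0.618 and 2.34 CPM in WTTR. Here replicate 2 of WTTR was the low library, at 1.10 times the highest WTSH library, and the log2 fold change was 2.46 (SE 0.63, edgeR adjusted p = 0.0397). These levels rest on few reads, with 15 to 26 counts of Il11 and 7 to 68 counts of Il6 in a WTSH library. Il11 overlaps Tmem190, which had 16 to 50 counts in a library. The overlap is of the RefSeq spans of the genes, and shared exons were not examined. The strand setting of the counting is not given in the sources used here. Whether reads of Tmem190 were counted for Il11 is therefore not known.

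Lif, or leukemia inhibitory factor, was at 2.82, 3.18 and 2.96 CPM in WTSH and at 4.83, 9.96 and 7.97 CPM in WTTR. It was the cytokine with the least spread in the sham group, and replicate 1 was the lowest WTTR library rather than the highest. The log2 fold change of Lif was 1.34 (SE 0.35, edgeR adjusted p = 0.0423). Osm encodes oncostatin M, a cytokine that is made mainly by leukocytes, and was at 0.694, 0.856 and 2.47 CPM in WTSH. In WTTR it was at 243, 4.13 and 11.3 CPM, so that replicate 1 was 31.5 times the mean of the other 2 libraries. All 3 WTTR libraries were above the WTSH libraries, and the log2 fold change was 5.998 (SE 1.48, edgeR adjusted p = 0.0381).

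The receptor chains moved less than the cytokines. Osmr, the receptor chain for oncostatin M, was at 85.0, 70.3 and 87.0 CPM in WTSH and at 256, 135 and 90.7 CPM in WTTR. Its groups were separated by a factor of 1.04 and its log2 fold change was 0.99 (SE 0.32, edgeR adjusted p = 0.0707). Il6ra, the chain that binds IL-6, was at 55.2, 28.9 and 35.1 CPM in WTSH and at 50.1, 45.8 and 34.7 CPM in WTTR. The groups overlapped, with a log2 fold change of 0.13 and a 95% confidence interval from −0.52 to 0.79. Il6st, the shared chain, was at 400, 343 and 338 CPM in WTSH and at 399, 606 and 454 CPM in WTTR, with a log2 fold change of 0.43 and an interval from −0.16 to 1.02.

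Of the genes inside the cell, Stat3 and Socs3 rose. Jak2, a kinase that gp130 recruits, was at 83.2, 76.1 and 87.1 CPM in WTSH and at 371, 135 and 88.7 CPM in WTTR. Replicate 3 of WTTR was 1.02 times the highest WTSH library, and the log2 fold change was 1.27 (SE 0.40, edgeR adjusted p = 0.0676). Stat3, the transcription factor of the path, was at 153, 157 and 159 CPM in WTSH, a range of 1.04-fold, and at 576, 264 and 242 CPM in WTTR. The lowest WTTR library was 1.53 times the highest WTSH library, with a log2 fold change of 1.21 (SE 0.33, edgeR adjusted p = 0.0467). Socs3, the feedback inhibitor whose window above holds the STAT palindrome, was at 26.9, 27.1 and 44.4 CPM in WTSH and at 1030, 131 and 79.3 CPM in WTTR. All WTTR libraries lay above all WTSH libraries, and the log2 fold change was 3.66 (SE 0.84, edgeR adjusted p = 0.0333). Jak2 and Stat3 are named in the study from the same libraries, so their direction here is not independent evidence.

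**Figure D1:**
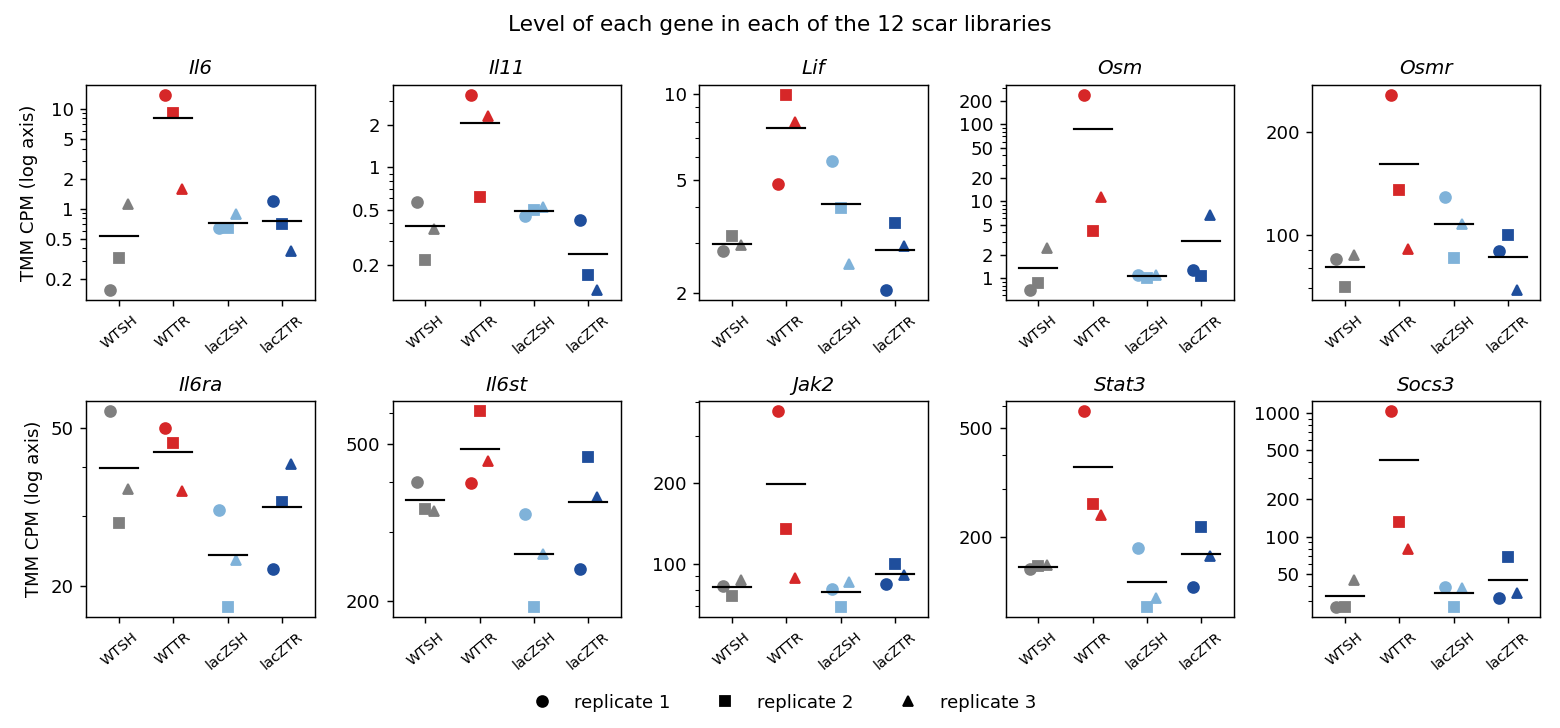
Each panel plots the level of 1 gene in TMM CPM on a log axis for the 4 groups, with a symbol per mouse (circle, square and triangle for replicates 1, 2 and 3) and a bar at the group mean. Replicate 1 of WTTR is the highest of the 12 libraries for Il6, Il11, Osm, Osmr, Jak2, Stat3 and Socs3, and the 6 Tem1lacZ/lacZ libraries of Socs3 lie between 27.0 and 68.0 CPM.

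The sizes of these changes depended on replicate 1 of WTTR. That library was 9.81 times the mean of the other 2 for Socs3, 3.32 times for Jak2, 2.62 times for Il6, 2.28 times for Stat3, 2.27 times for Osmr and 2.23 times for Il11. For Lif it was 0.539 times and for Il6st 0.752 times that mean. Without it, 0 of the 10 members were called by edgeR's quasi-likelihood test (1.86% of all genes) and 7 were higher at an unadjusted p under 0.05 (13.6% of all genes). The log2 fold change was then 2.50 for Osm, 1.66 for Socs3, 0.68 for Stat3, 0.43 for Jak2 and 0.47 for Osmr. In the same order their adjusted p in the same test was 0.0892, 0.05, 0.122, 0.182 and 0.231, with Socs3 at the threshold. Il6 had 3.30, Il11 1.94 and Lif 1.57, with adjusted p of 0.0557, 0.0889 and 0.0502 in that test. In the remaining WTTR libraries 9 members, all but Il6ra, were above all 3 WTSH libraries, as were 23.8% of all genes, and the median log2 fold change of the 10 was 1.12. Markers of several cell types moved beside these genes. The summed neutrophil markers given above were highest in the same library, as were the 8 summed macrophage markers, at 5542 CPM there, 3711 and 4489 CPM in the other WTTR libraries and 2301 to 3857 CPM in WTSH. For single macrophage markers the median log2 fold change was 0.55, with 1 called by edgeR (5.61% of all genes) and 4 higher without overlap (17.7%). The 5 summed T cell markers were also highest there, at 94.7 CPM, beside 25.4 and 20.1 CPM in replicates 2 and 3 and 27.0 to 48.7 CPM in WTSH. The mean log2 CPM of 6 keratinocyte markers was lowest in that library, at 9.30. The summed fibroblast markers were higher in all WTTR libraries than in WTSH. Of the 8 single markers, edgeR called 2 higher (5.61% of all genes) and 4 were higher without overlap (17.7% of all genes). All 6 endothelial markers were higher in WTTR without overlap and 4 of them were called by edgeR. Their summed level was 802 to 923 CPM in WTTR, 287 to 439 in WTSH, 366 to 611 in lacZTR and 231 to 390 in lacZSH. In lacZTR against lacZSH all 6 were also higher by their fitted values, with a median log2 fold change of 0.84. There edgeR called 0 of them and limma-voom 4 (2.31% of all genes). All 5 skeletal muscle markers were lower in WTTR than in WTSH by their fitted values, with a median log2 fold change of −3.09 and 0 called by edgeR. All 5 had an unadjusted p under 0.05 in edgeR, as had 2763 of all 18853 genes in that direction. Their summed level was 11625, 3139 and 1040 CPM in replicates 1, 2 and 3 of WTSH and 270.1 to 1759 in WTTR. Between lacZTR and lacZSH their median was −0.16, with 1183 to 1767 CPM in lacZTR and 700 to 2446 CPM in lacZSH. The part of these cell types in the changes was not tested.

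**Figure D2:**
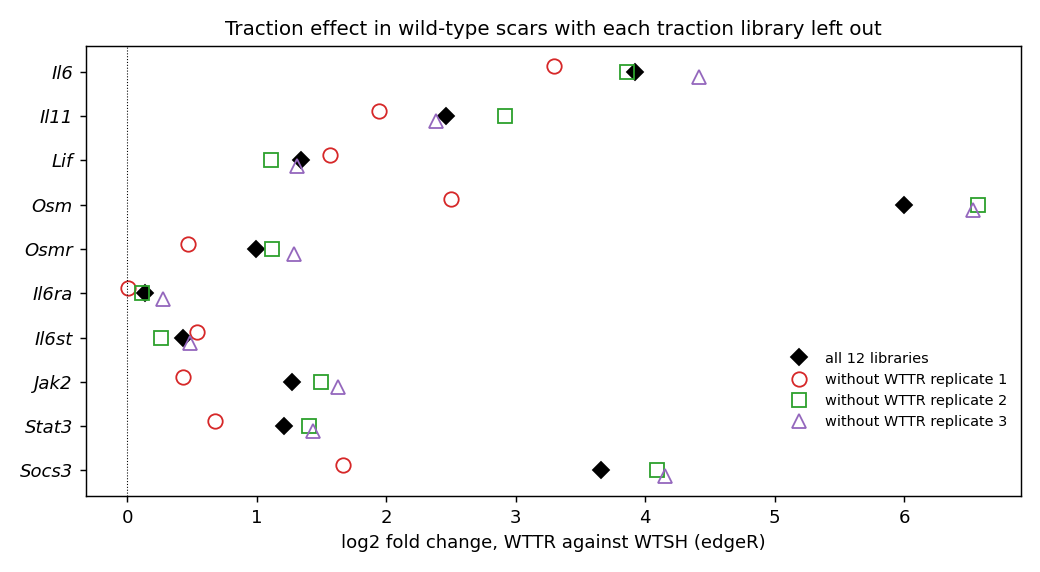
The horizontal axis gives the log2 fold change of WTTR against WTSH for the 10 genes, with all 12 libraries (black diamonds) and without each WTTR library in turn (open symbols). Leaving out replicate 1 moves Osm from 5.998 to 2.50 and Socs3 from 3.66 to 1.66, while Lif moves from 1.34 to 1.57.

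**Figure D3:**
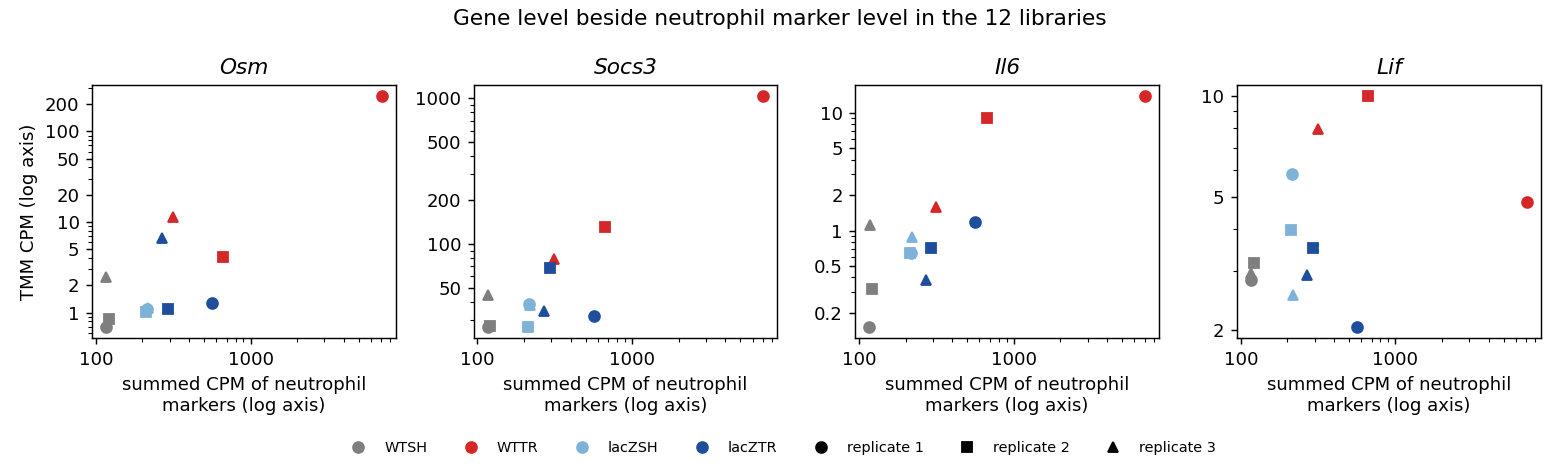
Each point is 1 of the 12 libraries, with the summed CPM of 10 neutrophil markers on the horizontal axis and the CPM of Osm, Socs3, Il6 or Lif on the vertical axis, both on log axes. The circle at the right is replicate 1 of WTTR at 7054 CPM, which is highest for Osm, Socs3 and Il6 and is 4th for Lif.

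The second comparison asked the same of Tem1lacZ/lacZ scars, and no member passed the test. edgeR's quasi-likelihood test called 0 members (0% of all genes), and 0 members had an unadjusted p under 0.05 (8.12% of all genes). DESeq2 called 0 (0.149% of all genes) and limma-voom called 0 (2.31%). The median log2 fold change of the 10 members was 0.28, beside −0.01 for all genes. Without replicate 1 of lacZTR it was 0.43, beside 0.004 for all genes, and 2 members had an unadjusted p under 0.05 in edgeR. The share of all genes at that p in this fit is not given here.

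Among the cytokines, Il6 was at 0.642, 0.640 and 0.888 CPM in lacZSH and at 1.18, 0.705 and 0.377 CPM in lacZTR. The lacZTR libraries lay on both sides of the lacZSH libraries, with a log2 fold change of 0.05 and a 95% interval from −1.73 to 1.83. Il11 was at 0.452, 0.498 and 0.525 CPM in lacZSH and at 0.419, 0.172 and 0.132 CPM in lacZTR. It was the only member that was lower with traction without overlap, as were 6.16% of all genes, and its log2 fold change was −1.05 (SE 0.65, edgeR adjusted p = 0.666). These values come from 7 to 26 counts per library. Lif was at 5.83, 3.98 and 2.54 CPM in lacZSH and at 2.04, 3.53 and 2.92 CPM in lacZTR, which overlap. Osm was at 1.09, 1.02 and 1.11 CPM in lacZSH and at 1.28, 1.09 and 6.73 CPM in lacZTR, so that only replicate 3 stood out. Without that library the log2 fold change of Osm was 0.13 in place of 1.5.

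The receptor and signalling genes overlapped between the Tem1lacZ/lacZ groups without exception. Osmr was at 129, 85.4 and 108 CPM in lacZSH and at 89.6, 99.97 and 68.8 CPM in lacZTR. Il6ra was at 31.0, 17.6 and 23.2 CPM in lacZSH and at 22.0, 32.5 and 40.6 CPM in lacZTR. Il6st was at 332, 193 and 264 CPM in lacZSH and at 241, 463 and 367 CPM in lacZTR. These 3 chains had log2 fold changes of −0.32, 0.40 and 0.44. Jak2 was at 80.9, 69.2 and 85.7 CPM in lacZSH and at 84.0, 100.4 and 91.2 CPM in lacZTR. Stat3 was at 182, 112 and 121 CPM in lacZSH and at 133, 218 and 171 CPM in lacZTR. Socs3 was at 38.8, 27.0 and 38.3 CPM in lacZSH and at 32.0, 68.0 and 34.7 CPM in lacZTR. The 95% interval of the log2 fold change ran from −0.65 to 1.10 for Jak2, from −0.38 to 1.05 for Stat3 and from −1.30 to 2.04 for Socs3, so that a 2-fold rise was inside each of them.

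The third comparison set the traction groups of both genotypes side by side. It shares the WTTR libraries, replicate 1 included, with the first comparison, so its values are not separate evidence on those libraries. All 10 members were lower in lacZTR than in WTTR by their fitted values, with a median log2 fold change of −1.26 beside 0.01 for all genes. None passed the adjusted threshold of edgeR's quasi-likelihood test (0 called, where 0.0955% of all genes were called lower). At an unadjusted p under 0.05, 8 members were lower, against 15.1% of all genes. DESeq2 called 6 members, namely Il6, Il11, Lif, Osm, Stat3 and Socs3 (12.4% of all genes), and limma-voom called 0 (0.0849%).

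Il6, Il11, Lif, Stat3 and Socs3 were lower in every lacZTR library than in any WTTR library, as were 13.7% of all genes. The smallest adjusted p belonged to Il11, with a log2 fold change of −3.13 (SE 0.66, edgeR adjusted p = 0.0834). Il6 had −3.43 (SE 0.85, edgeR adjusted p = 0.0922) and Lif −1.42 (SE 0.35, edgeR adjusted p = 0.0930). Socs3 had −3.20 (SE 0.82) and Stat3 −1.05 (SE 0.33). Osm had the largest difference, −4.82, and the largest SE, 1.39, and its groups overlapped because replicate 3 of lacZTR exceeded replicate 2 of WTTR. Osmr and Jak2 had −0.90 and −1.11, and Il6ra and Il6st had −0.46 and −0.44. Without replicate 1 of WTTR, 4 members were lower at an unadjusted p under 0.05 (10.3% of all genes), and the log2 fold change was −1.30 for Osm, −1.19 for Socs3, −0.51 for Stat3 and −0.25 for Jak2, whereas it was −2.80 for Il6, −2.60 for Il11 and −1.63 for Lif. Without replicate 2 of WTTR, 3 members were called lower (Il11, Osm and Socs3), beside 3.8% of all genes. Without replicate 1 of lacZTR the median log2 fold change of the 10 members was −1.11.

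**Figure D4:**
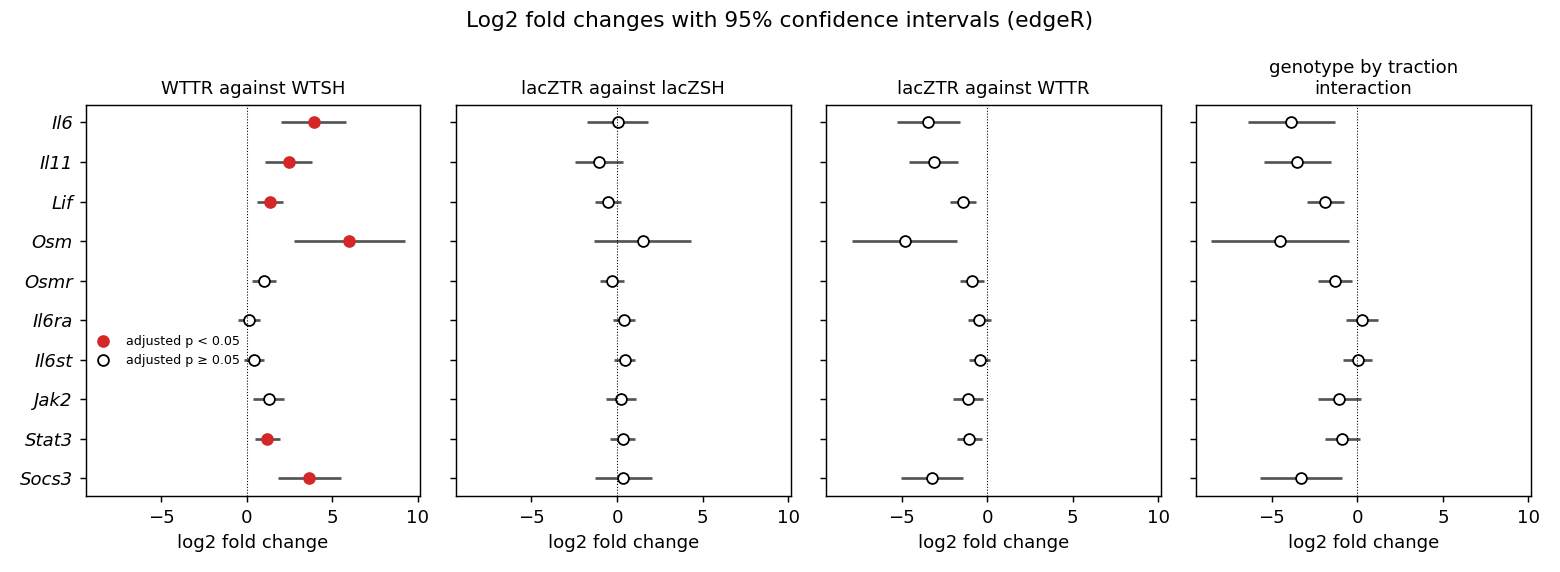
Points give the log2 fold change of each gene in 4 contrasts and lines its approximate 95% confidence interval, derived from edgeR's test. Filled red points mark an adjusted p under 0.05. The 6 filled points are all in WTTR against WTSH, and in lacZTR against lacZSH every interval includes 0.

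Without traction, no member passed the test between the genotypes. Between lacZSH and WTSH, edgeR's quasi-likelihood test called 0 members (0.0106% of all genes), DESeq2 called 0 (0.228%) and limma-voom 0 (0.0053%). Il6ra was the 1 member with an unadjusted p under 0.05, lower in lacZSH (6.62% of all genes), with a log2 fold change of −0.73 (SE 0.30, edgeR adjusted p = 0.412). Its libraries overlapped, since replicate 1 of lacZSH at 31.0 CPM was above replicate 2 of WTSH at 28.9 CPM. Il6st was lower in all lacZSH libraries than in any WTSH library, as were 13.8% of all genes, and its log2 fold change was −0.45 (SE 0.27, edgeR adjusted p = 0.507). The median over the 10 members was 0.01.

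Whether traction acted differently in the 2 genotypes was tested by the interaction, with a negative value where the change was smaller in Tem1lacZ/lacZ mice. edgeR's quasi-likelihood test called 0 members (0% of all genes) and its smallest adjusted p was 0.548. An unadjusted p under 0.05 was found for Il6, Il11, Lif, Osm, Osmr and Socs3, all with negative values, and for 4.46% of all genes in that direction. DESeq2 called Il11 alone (0.366% of all genes) and limma-voom 0 members (0%). The interaction of Il11 was −3.51 (SE 0.90) on the log2 scale, with an adjusted p of 0.548 in edgeR and 0.0389 in DESeq2. That of Il6 was −3.88 (SE 1.15), that of Lif −1.88 (SE 0.50), that of Osm −4.50 (SE 1.83) and that of Socs3 −3.29 (SE 1.10). Stat3 and Jak2 had −0.87 (SE 0.46) and −1.05 (SE 0.57), and Il6ra and Il6st had 0.27 and 0.01. Without replicate 1 of WTTR the interaction was −3.22 for Il6, −2.97 for Il11 and −2.07 for Lif, but −0.96 for Osm, −1.26 for Socs3, −0.31 for Stat3 and −0.17 for Jak2.

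Levels of different genes were compared per kilobase of exon (CPM per kb, with exon lengths from GENCODE). In WTSH, Il6st was highest at 32.5 ± 3.10 CPM per kb (SD, n = 3), above Stat3 at 16.4 ± 0.30, Jak2 at 16.3 ± 1.12 and Socs3 at 11.3 ± 3.46. Stat3 did not differ from Jak2, nor Jak2 from Socs3, beyond their ranges. Osmr at 6.67 and Il6ra at 4.60 CPM per kb followed and overlapped each other. The cytokines were lowest, from Lif at 0.687 and Osm at 0.590 to Il6 at 0.218 and Il11 at 0.183 CPM per kb, each overlapping the next. In lacZSH, Il6st at 23.7 CPM per kb was again first, and the 4 cytokines were last in the same order, down to Il11 at 0.236. In lacZTR the ends were the same, with Il6st at 32.2 and Il11 at 0.116 CPM per kb. In WTTR, Socs3 had the highest mean, 143 CPM per kb, but its range of 27.4 to 356 overlapped that of Il6st, which was 35.9 to 54.6. Osm had a mean of 38.0 CPM per kb there, ranging from 1.82 to 107, whereas Il11 remained last at 1.00.

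The rest of the path was represented by 46 further genes, listed by hand from textbook knowledge, of which 45 were tested. Il31 was not tested, with a mean of at most 0.0238 CPM in a group. With traction in Tem1WT/WT mice, 10 of the 45 rose and none fell, beside 5.61% of all genes called higher, and the median log2 fold change of the 45 was 0.88. The rises lay mostly in the genes listed as Stat3 targets, with 8 of 18 called and a median of 1.99. Stat3 activity was not measured, and whether Stat3 or other regulators acted on these genes was not tested. Without replicate 1 of WTTR the median of the Stat3 target genes was 0.63. Of the other JAKs and STATs 1 of 9 rose, of the feedback genes and phosphatases 1 of 7, and of the 6 other ligands and 5 other receptors tested none. At an unadjusted p under 0.05, 25 of the 45 were higher (16.7% of all genes), 2 of them other ligands, and 2 were lower, 1 other ligand and 1 other receptor. DESeq2 called 17 of the 45 genes (21.5% of all genes) and limma-voom 6 (3.97%). In edgeR without replicate 1 of WTTR, 13 of the 45 were higher at an unadjusted p under 0.05 (13.6% of all genes).

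Saa3, an acute-phase protein, had the largest change, with 12.8, 10.9 and 16.5 CPM in WTSH and 2749, 465 and 85.5 CPM in WTTR. Its groups did not overlap and its log2 fold change was 6.36 (SE 1.41, edgeR adjusted p = 0.0329), or 4.35 without replicate 1 of WTTR. Lcn2, which encodes an iron-binding protein of neutrophils and epithelia, was at 8.51, 6.19 and 6.78 CPM in WTSH and at 650, 20.0 and 7.44 CPM in WTTR. Its groups overlapped, and the log2 fold change of 4.98 fell to 0.93 without replicate 1 of WTTR. Timp1, an inhibitor of matrix metalloproteinases, was at 22.8, 20.7 and 57.9 CPM in WTSH and at 546, 121 and 148 CPM in WTTR. Without overlap, Timp1 had a log2 fold change of 3.01 (SE 0.75, edgeR adjusted p = 0.0384) and of 1.97 without that library.

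The remaining named genes act within cytokine signalling. Socs1, a second feedback inhibitor, had a log2 fold change of 2.39 (SE 0.64), from 1.80, 2.33 and 2.16 CPM in WTSH to 24.9, 3.40 and 4.81 CPM in WTTR. Il4ra, a receptor chain for IL-4 and IL-13, had 2.35 (SE 0.50), from 105, 71.0 and 101 CPM to 884, 310 and 216 CPM. Cebpb, a transcription factor of the acute-phase response, had 2.09 (SE 0.52), from 114, 121 and 135 CPM to 1106, 267 and 196 CPM. In all 3 genes the highest library was replicate 1 of WTTR and the groups did not overlap. Bcl3, a nuclear cofactor of NF-κB, had 1.95 (SE 0.45), from 11.4, 12.5 and 13.1 CPM to 85.0, 31.2 and 27.1 CPM. Jak3, the kinase of the common gamma chain of leukocyte receptors, had 1.505 (SE 0.38), from 14.0, 12.7 and 14.1 CPM to 59.6, 32.3 and 24.0 CPM, and is also named in the study from these libraries. In edgeR's quasi-likelihood test the adjusted p of these 5 genes lay between 0.0311 and 0.0440. Without replicate 1 of WTTR, 2 of the 45 genes were called, Cebpb (log2 fold change 0.90) and Fosl2 (0.98), beside 1.86% of all genes, and the median of the 45 was 0.28. The log2 fold change was then 0.94 for Socs1, 1.49 for Il4ra, 1.22 for Bcl3 and 1.03 for Jak3. The neutrophil markers were highest in that library here too, and their part in the changes of these genes was not tested.

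**Figure D5:**
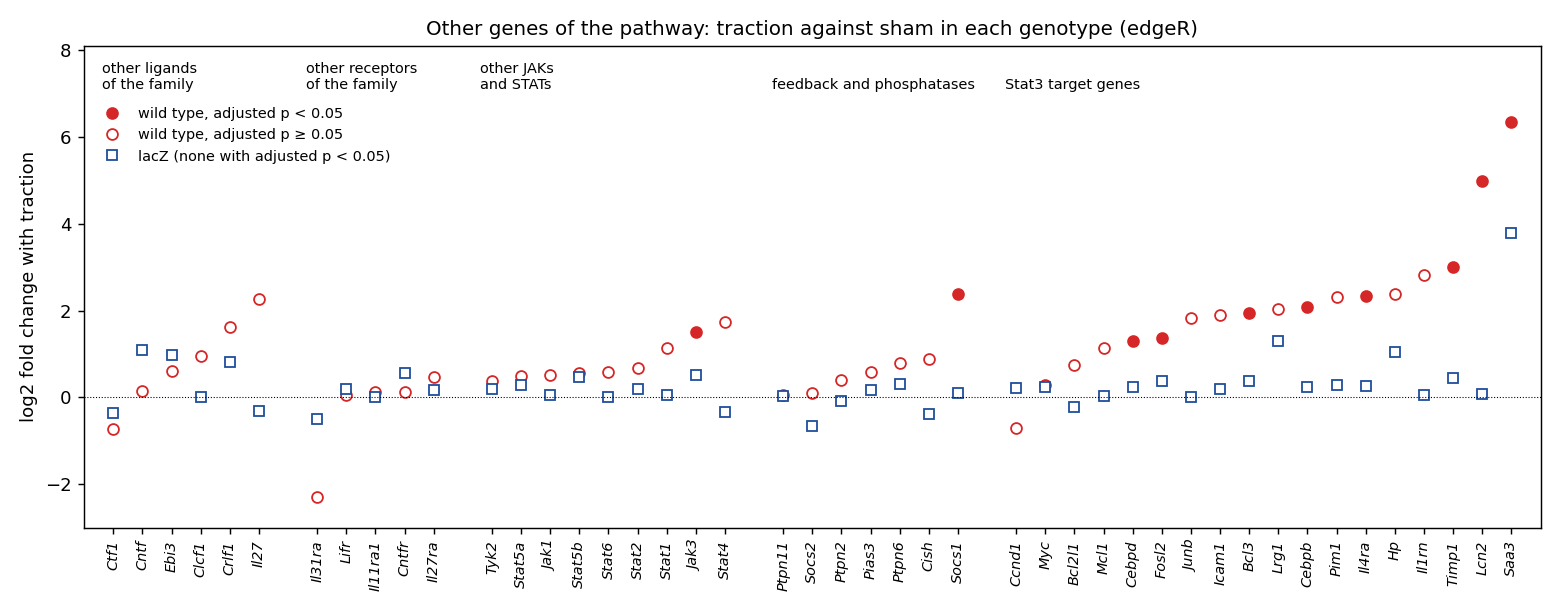
The vertical axis gives the log2 fold change with traction of 45 further genes of the path in Tem1WT/WT (red circles, filled where the adjusted p was under 0.05) and Tem1lacZ/lacZ mice (blue squares), grouped by role. The 10 filled points are at 1.30 or above, and Saa3 has the highest value in both genotypes, 6.36 and 3.80.

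In Tem1lacZ/lacZ mice 0 of these 45 genes were called with traction in edgeR's quasi-likelihood test (0% of all genes), DESeq2 (0.149%) or limma-voom (2.31%). By their fitted values 36 were higher and 9 lower, where 9143 of all 18853 genes were higher. An unadjusted p under 0.05 in edgeR was found for 3 of the 45 (8.12% of all genes). They were Saa3 (log2 fold change 3.80, SE 1.25), Socs2 (−0.67, SE 0.28) and Ebi3 (0.98, SE 0.44). Saa3 was at 16.1, 7.69 and 22.5 CPM in lacZSH and at 76.8, 535 and 31.4 CPM in lacZTR, without overlap, and its edgeR adjusted p was 0.598. Between lacZTR and WTTR, 0 of the 45 were called in edgeR, 24 were lower in lacZTR at an unadjusted p under 0.05 (15.1% of all genes) and 1 was higher, DESeq2 called 12 (12.4% of all genes) and limma-voom 0. The smallest p belonged to Cebpd (−1.73, SE 0.30, edgeR adjusted p = 0.0648), Fosl2 (−1.39, SE 0.27, edgeR adjusted p = 0.0829) and Mcl1 (−1.44, SE 0.37, edgeR adjusted p = 0.0951). Without replicate 1 of WTTR these were −1.28, −0.99 and −0.69, 10 of the 45 were lower at an unadjusted p under 0.05 (10.3% of all genes), and the median of the 45 moved from −0.87 to −0.20. Between the sham groups 0 were called by any of the 3 tools, 3 were lower in lacZSH at an unadjusted p under 0.05 and none higher (6.62% of all genes lower, 11.7% in either direction), and Stat5b (−0.67), Myc (−0.51) and Cebpd (−0.69) had the smallest p. For the interaction 0 were called by any of them, 10 had an unadjusted p under 0.05, all negative (4.46% of all genes), and Il4ra (−2.08, SE 0.68), Fosl2 (−0.99, SE 0.37) and Lcn2 (−4.90, SE 1.72) had the smallest p. Without replicate 1 of WTTR these interactions were −1.20, −0.57 and −0.82.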

How the data were processed

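RNA-seq of 12 mouse scars, 3 mice for each of 4 groups, was analysed from the counts that the authors deposited, which are raw whole numbers of reads on genes. The libraries were stranded poly(A) libraries. Per the submitters' processing notes, reads were trimmed with fastp 0.20.0, aligned to GRCm38 with HISAT2 2.1.0 and counted with featureCounts 2.0.0. The annotation and how strand and multiply aligned reads were treated are not given in the sources used here. Depth is given with the results, and confidence levels are 95%.

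Counts were analysed in R 4.3.3 with edgeR 4.0.16 (filterByExpr by group, TMM, robust quasi-likelihood, a single model of the 4 groups with 8 residual degrees of freedom), limma 3.58.1 and DESeq2 1.42.0. Tests were two-sided and were checked on simulated data. log2 CPM used a prior count of 2. Python 3.11.15 and matplotlib 3.10.9 served for the figures. Per-kilobase levels used union exons of GENCODE release 21 of the mouse. Gene positions and promoter sequences came from RefSeq.

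The members, gene lists and tests were chosen with earlier results of these data known, and the lists were written by hand. All 10 members were named. Of the other pathway genes, those called were named, up to the 8 of largest change in a contrast, or the 3 of smallest p where none was called. Cebpb and Fosl2 without replicate 1 of WTTR were also named, Fosl2 after its values were seen. Genes of like pattern were the 3 with the highest Pearson r over the 12 libraries, among genes whose mean log2 CPM reached 1, of which 1 is not reported here.

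The alternatives were other size factors, other filters, DESeq2, limma-voom, quasi-likelihood without the robust option, a replicate block, fits of the compared libraries alone, an added minimum of 1 for the absolute log2 fold change and the omission of every library in turn. Same-numbered libraries came from different mice. No pair of libraries within a group was a copy.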

Additional observations from a re-analysis of the deposited data

Results flagged for a closer look

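Il11 is the 1 member whose libraries separated in opposite directions with traction in the 2 genotypes. The share of all genes with such a pattern was not determined. Its log2 fold change was 2.46 in Tem1WT/WT mice, where the 3 WTTR libraries were all above the WTSH libraries. The lowest WTTR library was at 0.618 CPM and the highest WTSH library at 0.564 CPM. In Tem1lacZ/lacZ mice the log2 fold change was −1.05, and the 3 lacZTR libraries were all below the lacZSH libraries. The highest lacZTR library was at 0.419 CPM and the lowest lacZSH library at 0.452 CPM. That fall did not pass edgeR's quasi-likelihood test (adjusted p = 0.666). The interaction was −3.51 on the log2 scale, with an adjusted p of 0.548 in edgeR's quasi-likelihood test (unadjusted p = 0.00234, from a model of all 12 libraries fitted across all genes), 0.0389 in DESeq2 and 0.408 in limma-voom. Over the other alternatives it kept its sign, from −4.09 to −2.97 when 1 library was left out. The change rests on 7 to 139 counts per library.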

How the results depend on the processing

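With traction in Tem1WT/WT mice, the 6 members called became 2 with all genes of at least 1 count, 3 with limma-voom, 1 with the replicate block and 0 with only the 6 libraries compared, and the 10 pathway genes called became 4, 6, 4 and 0 in the same order and 17 with DESeq2. Leaving out 1 library gave 0 to 6 members and 0 to 18 pathway genes. Calls over all genes shifted too. edgeR called 1057 genes higher and 668 lower in the main fit, and 360 in either direction without replicate 1 of WTTR. DESeq2 called 4047 and limma-voom 748. Shares of all genes under the other alternatives are not given here, so lower counts are not read as particular to these genes. The count of members was 0 without replicate 1 of WTTR, replicates 1 or 2 of WTSH or replicate 3 of lacZSH, 1 without replicate 3 of WTSH, 2 without replicate 2 of lacZSH, and 3 without replicate 1 of lacZSH or replicate 2 of lacZTR. Leaving out a WTSH library lowered this count to 0 or 1 but left the members' median log2 fold change at 1.29 to 1.33, whereas it was 1.12 without replicate 1 of WTTR. Between lacZTR and WTTR, DESeq2 called 6 members and 12 pathway genes (12.4% of all genes). Leaving out 1 library gave 0 to 3 and 0 to 9, the highest without replicate 2 of WTTR, where 3.8% of all genes were called lower. For the interaction DESeq2 called 1 member (0.366% of all genes). The causes of these differences were not tested. In Tem1lacZ/lacZ mice and between the sham groups 0 members and 0 pathway genes were called under every alternative run. The main edgeR fit called 0% and 0.0106% of all genes there.

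Every member higher with traction in Tem1WT/WT mice, and every member lower in lacZTR than in WTTR, kept its direction under all alternatives except Il6ra, which ranged from −0.0304 to 0.44 with traction in Tem1WT/WT mice over the left-out libraries. Other reversals were of values near 0. Il6 with traction in Tem1lacZ/lacZ mice was −0.59 with limma-voom, −0.0021 with the replicate block and −0.38 to 0.37 over the left-out libraries, and Socs3 there ranged from −0.0548 to 0.61. Between the sham groups the left-out range was −0.62 to 0.47 for Osm, −0.14 to 0.00713 for Jak2 and −0.0398 to 0.37 for Socs3. The interaction of Il6st was −0.0125 with limma-voom, −0.0038 with the replicate block and −0.23 to 0.28 over the left-out libraries, and that of Il6ra −0.0342 to 0.55. No pathway gene reversed in the comparison in which the naming rule chose it, but Lcn2 between lacZTR and WTTR went from −3.34 to 0.73 without replicate 1 of WTTR. Pathway genes that the rule did not choose also reversed there, among them Hp (−1.14 to 1.33) and Il1rn (−2.37 to 0.50). With traction in Tem1WT/WT mice, Hp went from 2.39 to −0.06 and Il1rn from 2.83 to −0.03 without that library. Upper quartile normalization moved the median of all genes to −0.12 with traction in Tem1WT/WT mice and to 0.14 between lacZTR and WTTR. With at least 10 counts in every library Il6 and Il11 were not tested, and 4 of the 8 other members were called in Tem1WT/WT mice. Deviations of same-numbered libraries correlated at −0.32 to 0.25, not above 0.1 in every pair, so the replicate numbers were not taken to pair the mice, and the block lowered the calls as given.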

Other observations

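Genes with a pattern like that of a member were sought over the 12 libraries among 13636 genes, as a description. The libraries share groups and depth, and replicate 1 of WTTR is an extreme point for many genes, so high values of r are common. Osm was most like Cd14 (r = 0.99), the monocyte co-receptor for lipopolysaccharide, Plaur (r = 0.98), the urokinase receptor, and Tnfrsf26 (r = 0.98). Cd14 was at 14.6 to 33.1 CPM in WTSH and at 979, 55.9 and 93.7 CPM in replicates 1, 2 and 3 of WTTR. Jak2 was most like Il18rap, Tifa and Pilra (r = 0.98 for each), and Socs3 was most like Picalm, Cd33 and Tnfrsf9 (r = 0.98, 0.98 and 0.98). For these 3 members replicate 1 of WTTR was by far the highest library.

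Stat3 was most like Bcl3, Sbno2 and Wbp1l (r = 0.98 for each), of which Bcl3 is among the listed Stat3 targets. Il6 was most like Hif1a (r = 0.94), the oxygen-sensing transcription factor, Cxcl1 (r = 0.94), a neutrophil-attracting chemokine, and M6pr (r = 0.93). Il11 was most like BC017643 (r = 0.93), Slc16a3 (r = 0.92), a lactate transporter, and Mmp10 (r = 0.92), a matrix metalloproteinase. Among the genes most like Lif were Tmco3 (r = 0.88) and Lima1 (r = 0.87). The receptor chains were most like Gm38850, Wsb1 and Gcnt2 for Osmr (r = 0.96, 0.94 and 0.94), Klhl24, Adap1 and Fam78a for Il6ra (r = 0.96, 0.94 and 0.93) and Mia3, Tnrc6a and Zmynd8 for Il6st (r = 0.96 for each).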
